A study of Mus musculus with 20 samples.

Results

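Mitochondrial ribosomal protein genes were examined in the jejunal epithelium of mice lacking the histone demethylase genes Kdm6a and Kdm6b. The group holds every gene symbol present in both deposited tables that begins with Mrpl or Mrps followed by a digit, which gave 78 genes of 17294 names in the acute table and 16195 in the prolonged table. That rule uses names and no expression value, but the group was chosen with earlier results of these data known. Of the 78, 51 encode proteins of the large subunit and 26 of the small subunit by the current ribosomal protein nomenclature, which places Mrps30 and Mrps18a in the large subunit despite their names. The remaining one, Mrps36, is also called Kgd4 and encodes a subunit of the 2-oxoglutarate dehydrogenase complex, not of the ribosome.

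The tested mice carried a Kdm6a/Kdm6b knockout (DKO), and the comparison mice were labelled as control or wild type. All 20 libraries came from female mice, and poly(A) RNA of jejunal intestinal epithelial cells, described as crypt cells in the series design, was sequenced as bulk RNA. The acute groups comprised 7 DKO and 5 control libraries from 7 days after ablation, and the prolonged groups 5 DKO and 3 control libraries from 5 months after ablation. How ablation was induced, which cells it reached, the age and strain of the mice, and whether controls received the same induction are not given in the sources used here. The labels call the libraries biological replicates, so each was taken as a separate mouse. Reads in genes numbered 19134272 to 26586045 in acute DKO, 15435118 to 26549494 in acute control, 12560843 to 20612206 in prolonged DKO and 9914738 to 23181576 in prolonged control libraries. All 10 epithelial markers examined, such as Epcam and Vil1, were present, with means over libraries of at least 227 CPM in the acute and 208 CPM in the prolonged table. CPM give the reads of a gene after every library was brought to the same total. Kdm6a averaged 42.6 ± 2.73 CPM in acute DKO and 66.1 ± 6.62 CPM in acute control libraries (SD, n = 7 and 5), and Kdm6b 70.4 ± 8.87 and 101 ± 6.71 CPM. At the prolonged time Kdm6a averaged 49.1 ± 3.93 CPM in DKO and 76.2 ± 5.95 CPM in control libraries (SD, n = 5 and 3), and Kdm6b 76.3 ± 4.98 and 102 ± 3.85 CPM. Because reads outside a deleted part are included, the extent of deletion cannot be read from these values.

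The mitochondrial ribosome translates the few messenger RNAs made from mitochondrial DNA, all of which encode core subunits of the oxidative phosphorylation complexes. Its RNAs are encoded in mitochondrial DNA, whereas all its proteins are encoded in the nucleus, made in the cytosol and imported. Compared with its bacterial relatives it has less RNA and more protein, with many proteins found only in mitochondria. In the intestine, crypt stem and progenitor cells divide and enterocytes absorb nutrients, and both depend on mitochondrial activity.

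The members were expressed at moderate levels. Control means lay between 10 and 100 CPM for 74 of the 78 genes at each time, with medians of 42.4 CPM in acute and 37.1 CPM in prolonged controls. Levels were compared between genes as CPM per kilobase of merged exons in the GENCODE M21 annotation, where the median over all libraries was 25.4 and the quartiles were 12.8 and 42.5. Mrpl12, which encodes the protein of the flexible stalk that recruits translation factors, was highest at 118 CPM per kilobase in acute DKO, 129 in acute control, 103 in prolonged DKO and 105 in prolonged control libraries. Mrpl34, the homologue of bacterial protein L34, followed with 107, 112, 99.4 and 106 CPM per kilobase in the same groups. The lowest was Mrpl23, a protein at the exit of the nascent peptide tunnel, with 0.773, 0.863, 0.834 and 0.763 CPM per kilobase. Mrps33, a small subunit protein found only in mitochondria, was next lowest with 2.79, 2.79, 2.15 and 2.41 CPM per kilobase. Mrpl23 was also the member that varied most among controls, with a coefficient of variation of 31.5% at the acute time against a median of 5.63% over members. A named pseudogene of Mrpl23 exists in the annotation, so its low values are uncertain. None of these 4 genes was called at either time (adjusted p by limma at least 0.0777 for Mrpl12 and 0.276 for the other 3 genes).

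**Figure D1:**
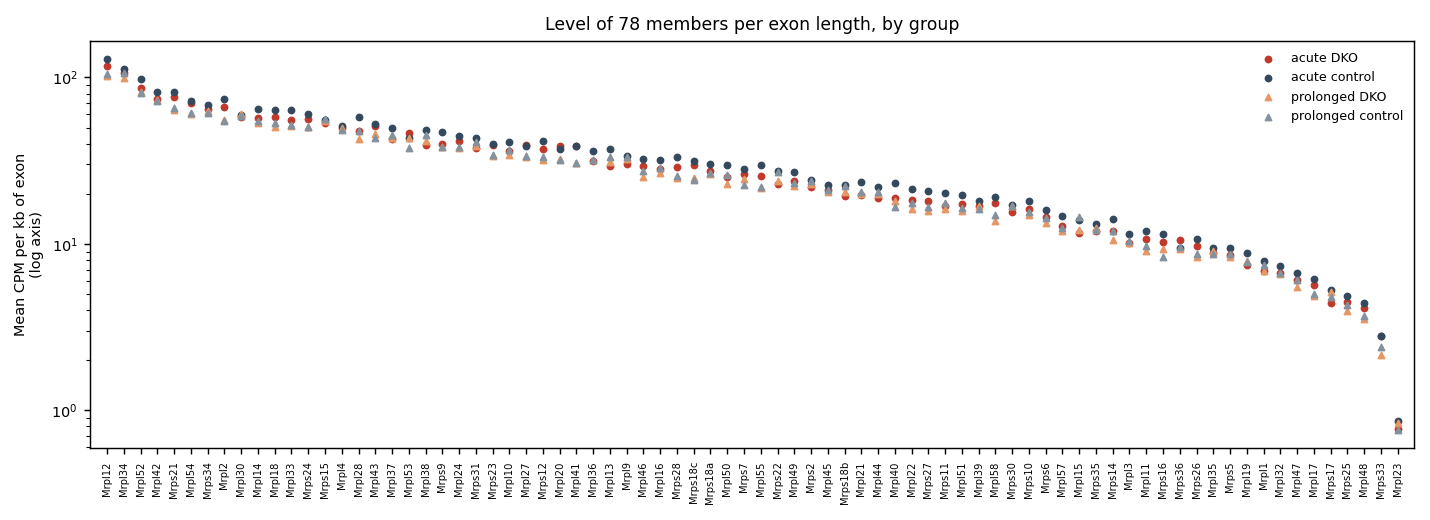
Mean level of each of the 78 members in CPM per kilobase of exon (vertical log axis), ordered from Mrpl12 at 115 to Mrpl23 at 0.809 over all libraries. Circles are acute DKO and control means and triangles prolonged DKO and control means, and the order of genes is broadly shared by the 4 groups.

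At the acute time, most members were somewhat lower in DKO than in control epithelium. A log2 fold change, taken as DKO minus control after adding 1 to each CPM, lay below 0 for 72 of the 78 members, and also for 64.6% of all 13601 genes tested. The member median was -0.15, with single members between -0.33 and 0.15, against a median of -0.07 over all genes tested. A gene was called when its limma p, adjusted over all genes tested by the Benjamini-Hochberg method, was under 0.05. By that rule 16 of the 78 members fell (20.5%) and 0 rose, against 12.1% of all tested genes called lower and 2.90% called higher. At an unadjusted p under 0.05 there were 41 members, or 52.6%, against 28.9% of all tested genes.

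That excess of calls depended on how libraries were scaled. The values above carry no correction for composition, and with such a correction 3 of the 78 members fell, which are Mrpl13, Mrpl38 and Mrpl28. The same 3 genes were called by limma on CPM scaled by trimmed mean of M-values (TMM) factors, by edgeR and by DESeq2, where 8.26%, 7.95% and 8.35% of all tested genes were called lower. In each 0 members rose, against 4.85%, 4.90% and 6.66% of all genes called higher. The share of members called, 3.85%, was then below the share of all genes in each of these fits. TMM scaling moved the median of all genes by 0.08 and that of the members to -0.06, so that the distance from the members to all genes was -0.08 without it and -0.07 with it. Of the 78 members, 63 had a log2 fold change below 0 with TMM scaling. The authors' deposited table likewise lists 3 members as lower and 0 as higher at an adjusted p under 0.05.

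In bulk tissue, fewer cells of a type and less RNA per cell cannot be told apart, and markers of several cell types moved with genotype. All 12 proliferating crypt markers examined fell at the acute time (median log2 fold change -0.66), and their summed level was 729 to 1023 CPM in DKO and 1155 to 1571 CPM in control libraries. Of 6 stem cell markers 2 fell, of 6 Paneth cell markers 5 fell and of 10 enterocyte markers 3 rose. Of all tested genes 12.1% were called lower and 2.90% higher. With TMM scaling 11 of the 12 proliferating, 2 of the 6 stem and 5 of the 6 Paneth markers fell, and 1 of the 10 enterocyte markers rose. Stem cell markers summed to 443 to 1101 CPM in acute DKO and 1281 to 1794 CPM in acute control libraries. A single stem marker averaged 850 CPM over the acute libraries, so this sum rests mostly on that gene. Paneth markers summed to 700.3 to 3710 CPM in acute DKO and 4212 to 8638 CPM in acute control libraries. Enterocyte markers summed to 33915 to 46170 CPM in acute DKO and 26187 to 39681 CPM in acute control libraries. Of the 10 epithelial markers, Cdh1 fell (-0.18 ± 0.05) and Vil1 rose (0.35 ± 0.09) at the acute time (limma adjusted p = 0.0347 and 0.0167). With TMM scaling 0 of these 10 fell and 1 rose. Of the 10 tested immune and the 8 tested stromal markers 0 were called. All 8 stromal markers had a log2 fold change above 0 (median 0.40), and 3 of the 10 immune markers were below 0 (median 0.05). The stromal sum spread from 16.8 to 622 CPM among acute DKO libraries and from 27.6 to 164 CPM among controls. The part of these shifts in the values of the mitochondrial ribosome genes was not tested.

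Summed over the 78 members, the level was 2984 to 3437 CPM (median 3190) in acute DKO and 3604, 3614, 3665, 3456 and 3469 CPM in acute control libraries. Every DKO library lay below every control in this sum. After TMM scaling the sums were 3122 to 3516 in DKO and 3314 to 3547 in control libraries, and the groups overlapped. At the prolonged time the sums were 3082, 2984, 3192, 2961 and 2940 CPM in DKO and 3251, 2937 and 3148 CPM in control libraries, with overlap on either scale. The share of the sum that came from the small subunit was nearly constant, at 29.0% to 29.6% in acute DKO, 29.0% to 29.4% in acute control, 29.0% to 29.8% in prolonged DKO and 28.8% to 29.3% in prolonged control libraries. In CPM, acute DKO 1 had the lowest of all 12 acute values for 35 of the 78 members and acute DKO 4 for 17. After TMM scaling these counts were 14 and 1, and acute DKO 2 was the lowest most often, for 26 members. The median deviation from the control mean was -0.20 in DKO 4 for the members and for all genes alike, and in DKO 1 it was -0.26 for the members and -0.16 for all genes (log2).

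**Figure D2:**
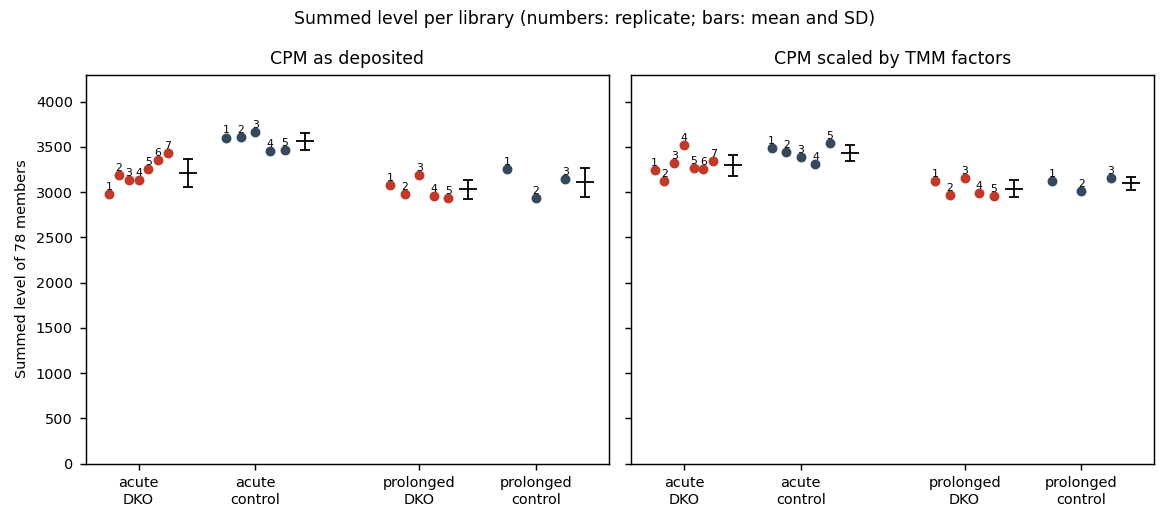
Summed level of the 78 members in each library, as deposited CPM (left) and after scaling by TMM factors (right), with points numbered by replicate and bars giving the mean and SD. On the left the acute DKO sums of 2984 to 3437 lie below all acute control sums of 3456 to 3665, and on the right these groups overlap.

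Within the large subunit, 11 of 51 members fell at the acute time (21.6%, against 12.1% of all tested genes), with a median log2 fold change of -0.15 and 47 values below 0 (92.2%, against 64.6%). Of its 30 proteins with a bacterial counterpart 8 fell (26.7%), and of its 21 proteins found only in mitochondria 3 fell (14.3%), with medians of -0.16 and -0.14. The second of these shares is near that of all genes, and the difference between both classes was not tested. The largest fall was that of Mrpl13, the homologue of bacterial L13, whose acute DKO values had a lowest, median and highest of 33.2, 33.9 and 41.9 CPM, against 47.3, 44.4, 50.5, 43.0 and 41.9 CPM in acute controls. DKO 6 was slightly above control 5, and the other 6 DKO libraries were below every control. The log2 fold change was -0.33 ± 0.08 (SE; limma adjusted p = 0.00994), and it was -0.25 with edgeR (adjusted p = 0.0229). Mrpl13 shares genomic sequence with the neighbouring gene Mtbp in the annotation, so some reads could belong to either.

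Mrpl38 and Mrpl40 encode proteins of the central protuberance that have no bacterial counterpart. Mrpl38 had 47.9, 56.2 and 62.7 CPM as lowest, median and highest in acute DKO and 68.5, 64.4, 71.7, 71.3 and 64.3 CPM in acute control libraries. All 7 DKO libraries were below all 5 controls, with a log2 fold change of -0.29 ± 0.07 by limma (adjusted p = 0.0102). Mrpl40 had 22.5, 23.7 and 27.4 CPM in acute DKO and 32.0, 32.3, 32.3, 26.5 and 29.6 CPM in acute control libraries. The groups overlapped through DKO 3 and control 4 only, and the log2 fold change was -0.30 ± 0.07 by limma (adjusted p = 0.0126). With edgeR and TMM factors, however, Mrpl40 was not called (adjusted p = 0.0760), whereas Mrpl38 was (adjusted p = 0.0263).

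Mrpl28, Mrpl21 and Mrpl15 encode homologues of bacterial proteins L28, L21 and L15. Mrpl28 had 45.1, 50.9 and 57.3 CPM as lowest, median and highest in acute DKO and 62.1, 65.9, 67.5, 58.7 and 55.4 CPM in acute control libraries. Control 5 was the one control within the DKO range, and the log2 fold change was -0.28 ± 0.07 by limma (adjusted p = 0.0152). This call was lost by limma without control 3 (adjusted p = 0.0527). Mrpl21 had 23.3, 27.5 and 29.4 CPM in acute DKO libraries and a narrow 32.5, 31.6, 32.1, 32.4 and 32.3 CPM in acute controls. The groups did not overlap, and the log2 fold change was -0.26 ± 0.06 by limma (adjusted p = 0.0168). Mrpl15 had 55.6, 63.1 and 65.0 CPM in acute DKO and 75.2, 78.7, 75.1, 68.5 and 69.9 CPM in acute control libraries. Its groups did not overlap either, with a log2 fold change of -0.25 ± 0.05 by limma (adjusted p = 0.00798). With edgeR and TMM factors neither Mrpl21 nor Mrpl15 was called (adjusted p = 0.114 and 0.116), while Mrpl28 was (adjusted p = 0.0190). Mrpl21 overlaps Ighmbp2 in the annotation.

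The other 5 large subunit members that fell did so by 0.18 to 0.23 on the log2 scale. They were Mrpl50, a protein found only in mitochondria, the homologues of bacterial proteins Mrpl19, Mrpl55 and Mrpl16, and Mrpl10, which forms the base of the stalk that carries Mrpl12. Mrpl10 and Mrpl16 did not overlap between genotypes. None of these 5 was called with TMM scaling, and each lost its call when single libraries were left out. Mrpl45, which lines the peptide exit tunnel and contacts the inner membrane, was lower in all 7 DKO libraries than in every control without being called. Its acute DKO values had a lowest, median and highest of 49.3, 51.1 and 52.0 CPM, against 53.1, 57.8, 56.2, 54.6 and 52.9 CPM in acute controls, and its log2 fold change was -0.11 ± 0.04 by limma (adjusted p = 0.124). It was chosen after its values were seen.

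Within the small subunit, 5 of 26 members fell at the acute time (19.2%, against 12.1% of all tested genes), with a median log2 fold change of -0.15 and 25 values below 0 (96.2%, against 64.6%). Of its 16 proteins with a bacterial counterpart 3 fell (18.8%), and of its 10 proteins found only in mitochondria 2 fell (20%). Mrps22, one of the proteins found only in mitochondria, had 26.0, 26.9 and 30.5 CPM as lowest, median and highest in acute DKO and 34.8, 31.7, 34.1, 32.0 and 32.1 CPM in acute control libraries. The groups did not overlap, and the log2 fold change was -0.26 ± 0.06 by limma (adjusted p = 0.00944), but -0.18 and not called with edgeR (adjusted p = 0.0703). Mrps17 and Mrps11, homologues of bacterial S17 and S11, changed by -0.25 ± 0.07 and -0.24 ± 0.07 by limma (adjusted p = 0.0363 and 0.0319), and were called in 3 and 5 of the 12 fits that left out 1 acute library. Mrps14, the homologue of S14, and Mrps31, found only in mitochondria, changed by -0.22 ± 0.06 and -0.19 ± 0.05 (limma adjusted p = 0.0195 and 0.0226). In both every DKO library was below every control, for Mrps31 only just (61.60 CPM in DKO 5 and 61.61 CPM in control 4). Mrps14 and Mrps31 were each called in 10 of those 12 fits and lost without control 1 or control 3. With TMM scaling or edgeR 0 small subunit members were called, while 13 (50%) had an unadjusted p under 0.05 in limma without scaling, against 28.9% of all tested genes. Mrps11 and Mrpl46 overlap each other in the annotation.

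Over both subunits, DKO libraries lay below every control in 9 of 78 members (11.5%), against 6.55% of all tested genes, and above every control in 0, against 1.24%. The 62 members that were not called had log2 fold changes between -0.22 and 0.15, of which 56 were below 0. The highest value belonged to Mrps36, the dehydrogenase subunit, with 6.38, 7.13 and 9.39 CPM as lowest, median and highest in acute DKO and 6.88, 7.61, 5.18, 5.98 and 7.38 CPM in acute control libraries. The groups overlapped, and the log2 fold change of 0.15 ± 0.12 was not called by limma (adjusted p = 0.426). The next highest was Mrpl53, a large subunit protein found only in mitochondria, at 0.09 ± 0.06 (limma adjusted p = 0.377). Both of these genes were picked out after their values were seen.

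**Figure D3:**
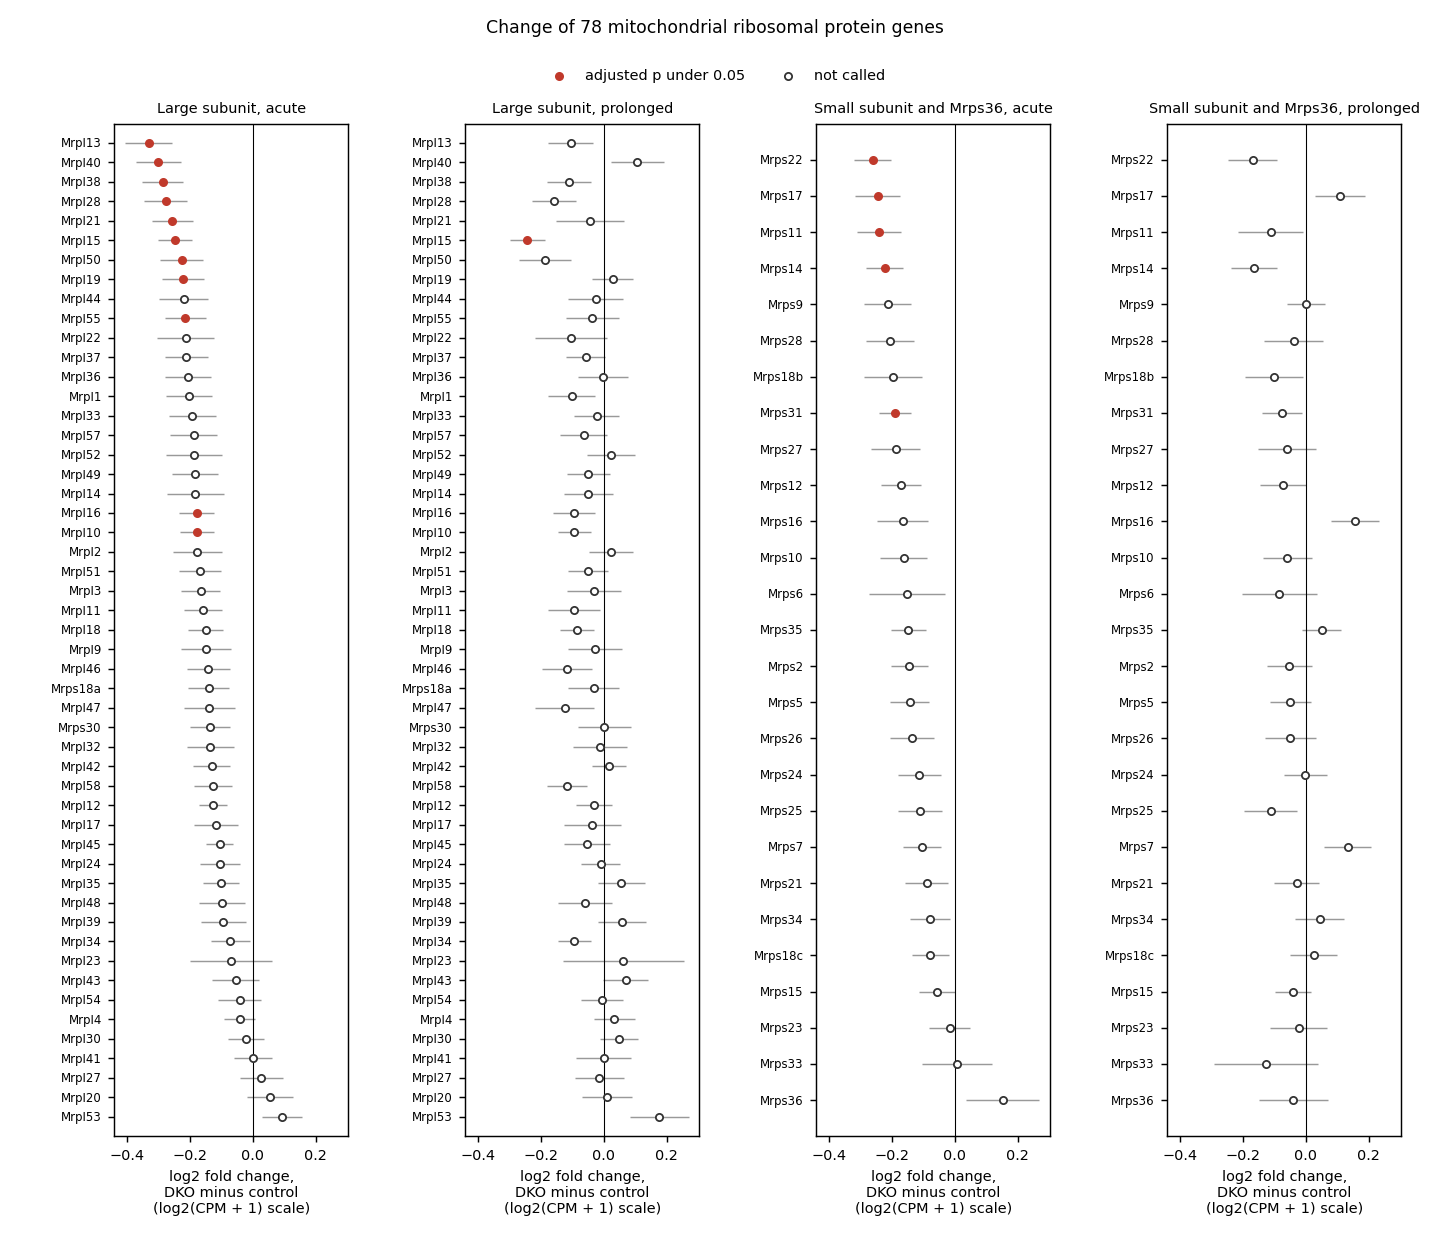
Log2 fold change of each of the 78 members with its standard error (horizontal axis, DKO minus control), for the large subunit and for the small subunit with Mrps36 at the acute and prolonged times, sorted by the acute value. Filled points have an adjusted p under 0.05 by limma, which 16 members reach at the acute time and 1, Mrpl15, at the prolonged time.

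The acute labels carry an animal number, and numbers within 10 of the next were grouped into 5 blocks, of which 3 held both genotypes. The member median within these blocks was -0.16 for DKO 5 against controls 2 and 3, -0.05 for DKO 6 against control 4 and -0.18 for DKO 1, 2 and 7 against control 1. The medians of all genes in the same blocks were -0.08, -0.02 and -0.06. Members below 0 numbered 68, 52 and 69 of 78 in the same order. Mrpl13, Mrpl28 and Mrpl40 were at -0.03 each in the second of these blocks, whereas Mrpl38 and Mrps22 were at -0.29 each there. With the blocks in the fit 5 members fell, 4 of them among the 16, and 0 rose, against 7.99% of all genes called lower and 2.44% called higher. Those 4 were Mrpl15, Mrpl40, Mrps14 and Mrps22. Mrpl13, Mrpl38 and Mrpl28, the 3 genes called with composition scaling, were not called with the blocks (limma adjusted p = 0.0529, 0.0597 and 0.0642). DKO 3 and 4 stood apart from the other acute libraries on the first principal component of all tested genes (-34.0 and -45.9, the other 10 between -12.1 and 28.0; 38.3% of the variance). They shared a block with no control, so for them block and genotype cannot be told apart. Without them 9 members fell and 0 rose, against 9.73% and 2.92% of all genes. Leaving out single acute libraries gave between 6 members lower (without control 3, against 7.41% of all genes) and 23 (without DKO 7, against 13.4%). Calls numbered 9 without DKO 1 and 9 without DKO 3, against 9.01% and 9.14% of all genes. They numbered 7 without control 1 (8.58% of all genes), 10 without control 2 (9.87%) and 10 without control 4 (8.24%). Mrpl13, Mrpl15, Mrpl21, Mrpl38, Mrpl40 and Mrps22 were called in each of these 12 fits.

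**Figure D4:**
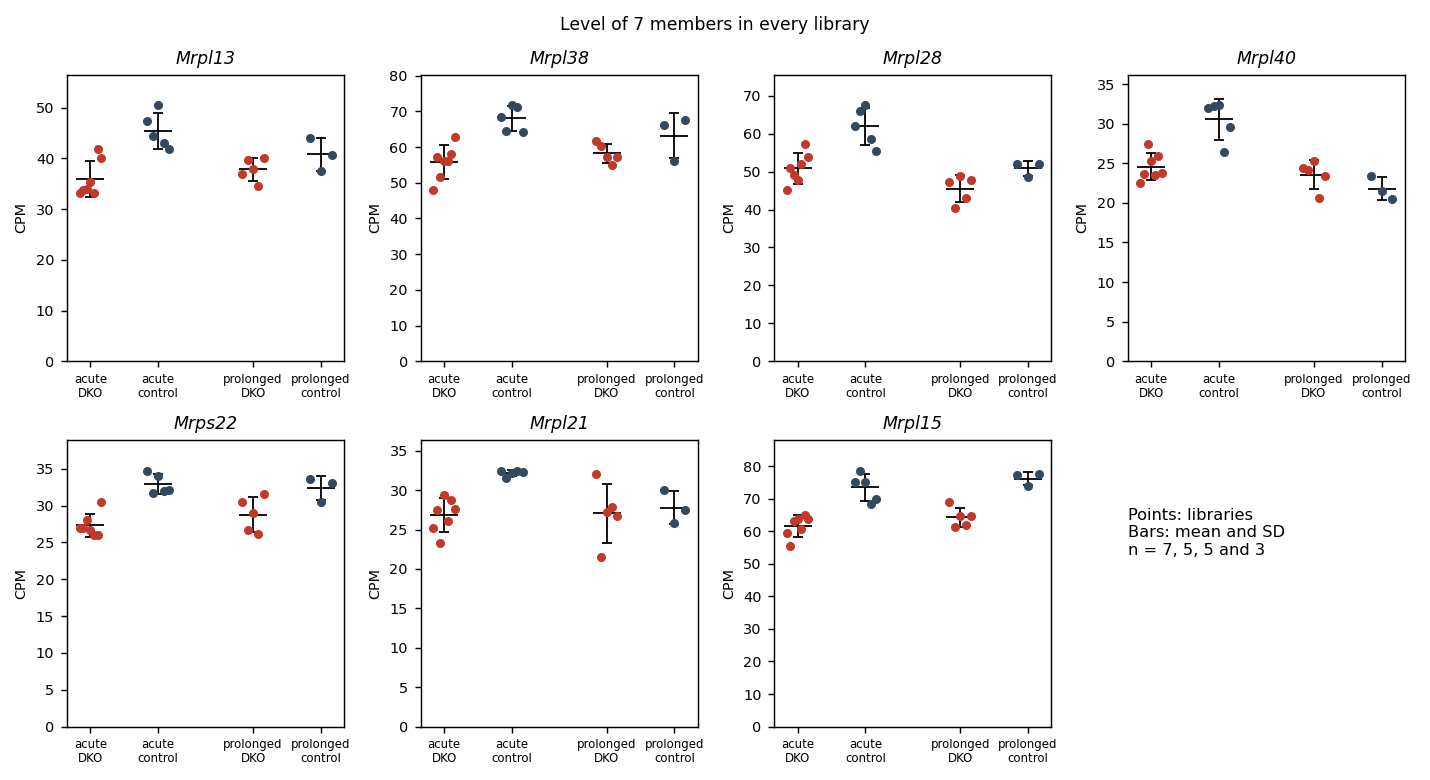
CPM of Mrpl13, Mrpl38, Mrpl28, Mrpl40, Mrps22, Mrpl21 and Mrpl15 in every library (points), with the mean and SD of each group as bars, for acute DKO, acute control, prolonged DKO and prolonged control libraries. Mrpl15 separates the genotypes at both times, whereas Mrpl40 is lower in acute DKO (24.6 against 30.5 CPM) and not in prolonged DKO libraries (23.6 against 21.8 CPM).

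Promoters are shown for 4 of the acute members with the largest falls, 2 with and 2 without one of the letter patterns searched. Of the 78 members, 69 had a window of 300 bases, 250 before and 50 after the first listed start, in the RefSeq table of build GRCm38.p6. Mrpl13, Mrpl15, Mrpl19, Mrpl38, Mrpl4, Mrpl54, Mrps28, Mrps34 and Mrps35 had no entry. The authors' build was mm9, so these positions are not those of the read alignments. Each sequence runs 5′ to 3′ on the gene's strand, and capitals mark the pattern CCGGAAG, recognised by ETS factors such as GABPA, on either strand. The windows are chr17:26123253-26123552 on the plus strand for Mrpl28, chr16:18876588-18876887 on the minus strand for Mrpl40, chr9:98601630-98601929 on the minus strand for Mrps22 and chr19:3282792-3283091 on the plus strand for Mrpl21.
Mrpl28: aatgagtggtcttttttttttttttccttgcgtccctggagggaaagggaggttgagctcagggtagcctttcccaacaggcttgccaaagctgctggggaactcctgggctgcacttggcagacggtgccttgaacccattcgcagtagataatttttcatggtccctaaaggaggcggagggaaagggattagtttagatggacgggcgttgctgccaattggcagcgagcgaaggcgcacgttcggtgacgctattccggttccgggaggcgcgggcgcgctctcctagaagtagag
Mrpl40: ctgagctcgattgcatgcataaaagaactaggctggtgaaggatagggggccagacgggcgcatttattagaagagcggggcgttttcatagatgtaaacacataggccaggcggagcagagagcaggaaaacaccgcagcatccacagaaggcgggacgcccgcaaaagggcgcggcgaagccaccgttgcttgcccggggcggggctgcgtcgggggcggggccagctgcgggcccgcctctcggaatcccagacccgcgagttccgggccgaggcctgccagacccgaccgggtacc
Mrps22: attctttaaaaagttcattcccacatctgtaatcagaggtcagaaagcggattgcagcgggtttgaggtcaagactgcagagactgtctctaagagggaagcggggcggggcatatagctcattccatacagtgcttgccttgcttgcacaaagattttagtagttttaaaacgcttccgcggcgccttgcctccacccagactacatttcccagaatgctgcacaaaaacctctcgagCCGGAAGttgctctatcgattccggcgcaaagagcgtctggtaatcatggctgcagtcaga
Mrpl21: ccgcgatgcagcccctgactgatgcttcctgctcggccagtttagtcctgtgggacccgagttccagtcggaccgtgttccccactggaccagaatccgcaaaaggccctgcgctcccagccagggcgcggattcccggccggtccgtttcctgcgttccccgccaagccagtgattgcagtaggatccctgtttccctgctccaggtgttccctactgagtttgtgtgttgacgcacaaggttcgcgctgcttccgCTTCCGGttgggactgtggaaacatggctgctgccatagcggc

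Across the 69 member windows, CCGGAAG occurred in 25 (36.2%), against 11.9% of the windows of 17492 protein-coding genes. The NRF1 pattern, GCGCA and GCGC with any base between, occurred in 13 (18.8% against 6.60%) and the YY1 pattern AANATGGCG in 11 (15.9% against 3.30%). The E-box CACGTG, bound by MYC among others, occurred in 5 (7.25% against 7.90%). Both strands were searched, and matches of different patterns could overlap. The median GC content was 58.3% in member windows and 56.3% in all windows. Of the 12 acutely called members with a window, 2 held CCGGAAG (Mrps22 and Mrpl21), 1 the YY1 pattern, and 0 the NRF1 pattern or the E-box. These are counts of letters in a window, not of bound sites.

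At the prolonged time, few members passed the test. Of the 78, 1 fell (1.28%), against 8.94% of all 13316 tested genes called lower, and 0 rose, against 5.74% called higher. The member median was -0.04, against 0.00 over all genes, and 57 members were below 0, against 49.6% of all genes. At an unadjusted p under 0.05 there were 4 members, or 5.13%, against 28.2% of all genes. The same single member fell by limma with TMM scaling, by edgeR and by DESeq2, which called 8.70%, 8.75% and 9.08% of all genes lower. In these fits 0 members rose, against 6.55%, 6.20% and 6.57% of all genes. The authors' deposited table also lists 1 member as lower.

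That member was Mrpl15, which had 69.0, 61.4, 64.6, 61.8 and 64.6 CPM in prolonged DKO and 77.2, 73.8 and 77.7 CPM in prolonged control libraries. All 5 DKO libraries lay below all 3 controls. The log2 fold change was -0.24 ± 0.05 by limma (adjusted p = 0.0118), and the adjusted p was 0.0147 with edgeR and 0.00554 with DESeq2. The call was lost without prolonged control 3 (limma adjusted p = 0.0631). Mrpl15 was also the only member called lower at both times, against 6.31% of the 13088 genes tested at both, and its acute call was lost with composition scaling as given above. In the annotation it overlaps no other protein-coding gene.

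Among the other members, Mrpl16 was below every control (DKO 28.0 to 32.0 CPM, controls 32.7 to 34.1 CPM) and Mrps16, the homologue of bacterial S16, above every control. Mrps16 had 23.2, 23.1, 27.2, 23.7 and 23.2 CPM in prolonged DKO and 21.9, 21.5 and 21.0 CPM in prolonged control libraries. Its log2 fold change of 0.16 ± 0.08 was not called by limma (adjusted p = 0.205), nor was that of Mrpl16 (-0.10 ± 0.07, adjusted p = 0.390). Groups without overlap thus numbered 2 with DKO below (2.56%) and 1 with DKO above (1.28%), against 11.7% and 8.82% of all tested genes. Mrpl53 had the highest value at this time, 0.18 ± 0.09, and was not called by limma (adjusted p = 0.252). The large subunit had a median of -0.03 and the small subunit of -0.05. Proliferating crypt markers fell in 11 of 12 at this time too (median -0.45), with sums of 1097 to 1316 CPM in prolonged DKO and 1492 to 1816 CPM in prolonged control libraries. Stem cell markers fell in 1 of 6 (Olfm4), with sums of 965 to 1165 CPM in prolonged DKO and 1497 to 1704 CPM in prolonged control libraries. Paneth markers fell in 3 of 6, with sums of 1866 to 6999 CPM in prolonged DKO and 7123 to 7789 CPM in prolonged control libraries. The genotypes did not overlap in these 3 sums, with DKO below, as in 11.7% of all tested genes. A single stem marker averaged 967 CPM over the prolonged libraries, so the stem sum rests mostly on that gene. Of the enterocyte markers 1 of 10 rose (Mgam), of the immune markers 1 of 8 tested rose (Itgam), and of the 3 tested stromal markers 0 were called. Of all tested genes 8.94% were called lower and 5.74% higher at this time. The part of these lists in the members' values was not tested.

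Of the 16 members that fell at the acute time, 13 were below 0 at the prolonged time, with a median of -0.10 and a range of -0.24 to 0.11. Each of the 16 had a smaller log2 fold change in size at the prolonged time, as did 84.8% of the 1622 genes called lower at the acute time and tested at both. Genes picked by the acute test are favoured to be larger there, so this is a description. The exceptions in sign were Mrpl40, Mrps17 and Mrpl19. Mrpl40 had 24.4, 24.1, 25.3, 20.6 and 23.4 CPM in prolonged DKO and 23.4, 21.5 and 20.5 CPM in prolonged control libraries, a log2 fold change of 0.11 ± 0.08. Mrps17 had 34.1, 29.1, 30.2, 30.9 and 30.0 CPM in prolonged DKO and 31.5, 25.9 and 28.3 CPM in prolonged control libraries, likewise 0.11 ± 0.08. In both genes the prolonged groups overlapped.

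The difference between the effects, prolonged minus acute, was tested for every gene from both limma fits and called at an adjusted p under 0.05. It was called in 0 of 78 members, against 0.153% of the 13088 genes, and 8 members (10.3%) had an unadjusted p under 0.05, against 8.29%. The largest differences were 0.41 for Mrpl40 (limma-based adjusted p = 0.105) and 0.35 for Mrps17 (adjusted p = 0.232). Without acute DKO 3 and 4 the difference of Mrpl40 was 0.45 and passed (limma-based adjusted p = 0.0430). edgeR's interaction test on whole reads called 0 members and 0 of all genes (adjusted p = 0.992 for Mrpl40). Across the 78 members the effects at both times had a Pearson correlation of 0.36 and a Spearman correlation of 0.39, and across all genes of 0.79 and 0.68. These are descriptions across genes that share the same libraries within each time. Both effects were below 0 in 53 members, 19 were below 0 at the acute time alone, 4 at the prolonged time alone and 2 at neither.

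**Figure D5:**
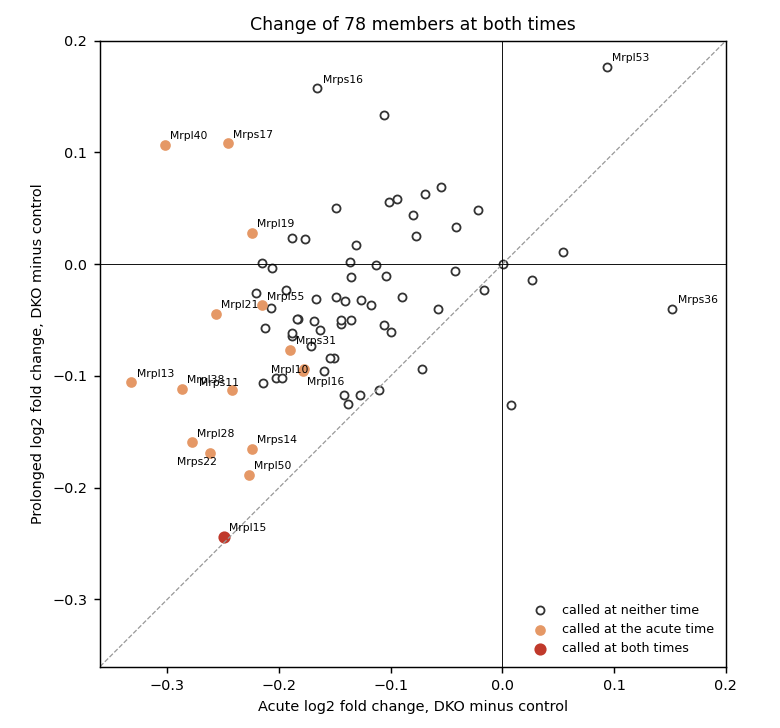
Log2 fold change of each of the 78 members (DKO minus control) at the acute time (horizontal axis) and the prolonged time (vertical axis), with equal values on the dashed line. Most points lie left of 0 and above the line. Mrpl15 lies near the line at -0.25 and -0.24, and Mrpl40 and Mrps17 lie above 0 on the vertical axis.

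Genes that act with the mitochondrial ribosome were read from lists made for this purpose. The mitochondrial ribosomal proteins whose symbols do not follow the naming rule were Dap3, Chchd1, Ptcd3 and Aurkaip1 of the small subunit and Gadd45gip1 of the large. Of these, 0 of 5 were called at either time, against 15% (acute) and 14.7% (prolonged) of all tested genes called in either direction. Their acute log2 fold changes were between -0.21 and -0.04, with 1 at an unadjusted limma p under 0.05 (20%, against 28.9% of all tested genes). So few genes cannot be told apart from these shares. Dap3, a GTP-binding protein, averaged 82.0 ± 8.05 CPM in acute DKO and 83.8 ± 2.74 CPM in acute control libraries (SD, n = 7 and 5). Ptcd3, a pentatricopeptide repeat protein, averaged 51.7 ± 5.23 and 59.7 ± 4.82 CPM in the same groups (-0.21 ± 0.08, limma adjusted p = 0.0978). Chchd1, Aurkaip1 and Gadd45gip1 had log2 fold changes of -0.16, -0.07 and -0.16, none of them called.

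Of 23 ribosome assembly factors, 3 fell at the acute time (13.0%, near the 12.1% of all tested genes) and 0 at the prolonged time, against 8.94% of all tested genes. Rcc1l, which acts on large subunit assembly, averaged 25.5 ± 2.65 CPM in acute DKO and 31.9 ± 2.57 CPM in acute control libraries (-0.32 ± 0.08, limma adjusted p = 0.0186). Fastkd2, an RNA-binding protein of the large subunit RNA, and Rpusd4, a pseudouridine synthase, changed by -0.29 ± 0.09 and -0.29 ± 0.08 by limma (adjusted p = 0.0375 and 0.0260). Of 15 translation factors only the elongation factor gene Tsfm fell at the acute time (6.67%, against 12.1% of all tested genes). Its log2 fold change was -0.22 ± 0.07 (limma adjusted p = 0.0436). At the prolonged time 0 of the 15 were called, against 14.7% of all tested genes. With limma on TMM-scaled values Rcc1l was still called (adjusted p = 0.0223), and Fastkd2, Rpusd4 and Tsfm were not (adjusted p = 0.104, 0.0527 and 0.200).

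Mitochondrial transfer RNA synthetases, which load amino acids for this ribosome, were lower in 6 of 20 genes after the short interval (30.0%, against 12.1% of all tested genes), with a median of -0.19. Ears2, for glutamate, averaged 22.9 ± 4.25 CPM in acute DKO and 32.0 ± 1.34 CPM in acute control libraries (-0.48 ± 0.11, limma adjusted p = 0.0107). Mars2, for methionine, changed by -0.40 ± 0.10 and Tars2, for threonine, by -0.30 ± 0.07 (limma adjusted p = 0.0188 and 0.00961). These 3 were called with TMM scaling as well, as were 4 of the 20 in all, against 8.26% of all tested genes.

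Of 16 genes of mitochondrial DNA expression 2 fell at the acute time (12.5%, near the 12.1% of all tested genes), the transcription factor genes Tfb2m (-0.36 ± 0.09) and Tfam (-0.27 ± 0.07), with limma adjusted p of 0.0185 and 0.0143. At the prolonged time 0 of these 16 were called, against 14.7% of all tested genes in either direction. Of 11 regulators of mitochondrial biogenesis 3 were called lower at the acute time (27.3%, against 12.1% of all tested genes). Tfam, the coactivator gene Ppargc1b (-0.27 ± 0.08, limma adjusted p = 0.0447) and the transcription factor gene Yy1 (-0.17 ± 0.05, limma adjusted p = 0.0498) fell at the acute time. With TMM scaling none of these 3 was called by limma, while Tfb2m was (adjusted p = 0.0320). At the prolonged time 1 of the 11 regulators fell and 1 rose (9.09% each, against 8.94% and 5.74% of all tested genes). Ppargc1b fell to 41.7 ± 1.93 CPM in prolonged DKO against 51.2 ± 3.09 CPM in control libraries (-0.29 ± 0.06, limma adjusted p = 0.00967). Ppargc1a, the related coactivator gene, rose to 104 ± 7.93 CPM in prolonged DKO against 86.2 ± 1.85 CPM in control libraries (0.26 ± 0.06, limma adjusted p = 0.0183).

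Of 23 genes of mitochondrial protein import, 4 fell at the acute time (17.4%, against 12.1% of all tested genes) and 1 at the prolonged time (4.35%, against 8.94%). Grpel2, a nucleotide exchange factor of the import chaperone, fell at both times, with log2 fold changes of -0.42 ± 0.09 and -0.41 ± 0.06 (limma adjusted p = 0.00656 and 0.00167). It averaged 31.5 ± 3.63 CPM in acute DKO and 42.4 ± 3.79 CPM in acute control libraries, and 33.7 ± 1.82 and 44.9 ± 1.81 CPM at the prolonged time. Timm50 of the inner membrane and Tomm40, the channel of the outer membrane, changed by -0.31 ± 0.07 and -0.24 ± 0.07 at the acute time (limma adjusted p = 0.00741 and 0.0329), and with TMM scaling Timm50 alone of these was called (adjusted p = 0.0225 and 0.246). With each acute library left out in turn, Ears2, Tars2, Tfam, Grpel2 and Timm50 were called by limma in all 12 fits, Mars2 in 11, Rcc1l and Tfb2m in 10 and Rpusd4 in 9. Fastkd2 was called in 5 of them, Tsfm, Ppargc1b and Tomm40 in 3 and Yy1 in 2. The prolonged call of Ppargc1a was lost without control 3 (limma adjusted p = 0.0739). The proteins of the respiratory chain and the ribosomal RNAs encoded by mitochondrial DNA were not analysed here.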

How the data were processed

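RNA-seq values of 20 libraries were used, in the 4 groups that the labels give. Per the submitters' processing notes, the build was mm9 and the tools included featureCounts 1.6.2, SAMtools 1.9, bedtools 2.27.1, FastQC 0.11.5, DESeq2 and STAR, with no role or order given. The authors deposited CPM per library and gene symbol, 1 table per time, with no scaling for composition, as the equal column sums show. The authors' tables also hold DESeq2 columns per the file headers: a mean normalised signal, a log2 fold change with its error, a test statistic (score) and a p-value with its adjusted value. Strand use in counting is not stated there.

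The 78 members and the other gene lists were chosen with earlier results of these data known. Genes with at least 0.5 CPM in 5 acute or 3 prolonged libraries were tested, 13601 and 13316 in all, and every member passed. Each time had a separate limma-trend fit on log2(CPM + 1), with no covariates (limma 3.58.1 in R 4.3.3), as the main test, with Benjamini-Hochberg adjustment over all tested genes. This scale understates changes of low genes. The difference between times was both log2 fold changes subtracted and divided by the combined standard error (square root of the sum of both variances), with a normal p. Within each library all CPM values (100%) were multiples of the value of 1 read, to within 0.01 reads, so whole reads were recovered and tested with edgeR 4.0.16 (quasi-likelihood, TMM factors) and DESeq2 1.42.0 as alternatives. In prolonged control 3 the value of 1 read is close to a power of 10, so recovery is less certain there. DESeq2 on these reads gave the authors' log2 fold changes within 3.41e-08. Other alternatives were another pseudocount (0.5), no filter, TMM-scaled CPM, each library left out, animal-number blocks and a replicate block. The scripts were tested on simulated data.

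Genes named were those called with the largest changes at each time or called at both, the 2 largest differences between times, the 2 highest and 2 lowest members per length, and up to 3 called genes per other list. A gene that this rule also names is not reported here. Exon lengths and overlaps came from GENCODE M21, matched by symbol for all 78 members (Python 3.11.15). P-values measure the spread between these mice.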

Additional observations from a re-analysis of the deposited data

Results flagged for a closer look

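Among the genes named above, 11 single libraries lay far from the rest of their group, by the gap to the nearest library relative to the whole range of the group. Chance alone flags about 1 in 20 groups. With up to 4 groups screened for each of many named genes, most or all of these flags may be chance. Of these, 6 concern prolonged DKO libraries and members of the mitochondrial ribosome. Prolonged DKO 3 was high in 4 of them. It had 27.2 CPM of Mrps16 (other prolonged DKO libraries 23.1 to 23.7), 25.9 CPM of Mrpl55 (20.7 to 21.8), 64.2 CPM of Mrpl34 (58.6 to 60.0) and 65.4 CPM of Mrps30 (53.7 to 54.2). The same library had the highest of all 8 prolonged values for 25 of the 78 members, while prolonged control 1 had it for 27. Prolonged DKO 2 was low for Mrpl50 (41.0 CPM, the others 49.4 to 50.9), and prolonged DKO 5 for Mrpl16 (28.0 CPM, the others 31.4 to 32.0).

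At the acute time, control 4 was low for Mrps11 (18.6 CPM, the other controls 21.5 to 22.6) and high for Ppargc1b (64.3 CPM, the others 49.0 to 53.2). Acute DKO 1 was low for Gadd45gip1 (31.4 CPM, the other DKO libraries 40.3 to 44.2), DKO 5 high for Aurkaip1 (71.0 CPM, the others 64.6 to 67.4) and DKO 7 high for Tars2 (57.9 CPM, the others 44.0 to 49.3). Whether anything beyond chance sets these libraries apart was not tested.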

How the results depend on the processing

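The count of 16 acute members called stayed at 16 with a pseudocount of 0.5 and with no filter. It was 3 with TMM-scaled CPM, 3 with edgeR, 3 with DESeq2, 5 with animal-number blocks, 9 without acute DKO 3 and 4, and 6 to 23 with single libraries left out. The acute member median was -0.062 with TMM-scaled CPM, -0.063 with edgeR and -0.053 with DESeq2, because these factors shift all genes, and -0.17 to -0.14 with single libraries left out. The prolonged count was 0 to 1 with single libraries left out, at 0 without control 3 alone, and the median ran from -0.08 to -0.0014. Members whose effect differed between times numbered 1 without acute DKO 3 and 4, and 0 under the other alternatives. Same-numbered libraries did not deviate together (correlations -0.24 to 0.20), but so few pairs cannot exclude a pairing. Of the same-numbered acute libraries only DKO 1 and control 1 shared an animal-number block. With a replicate block, to which libraries with a number of their own contribute nothing, the acute fit called 3 members and the prolonged fit 0. All calls kept their direction under every alternative run. Depth limits Mrpl23 most, which stayed under 1.36 CPM in every library.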
